A study of Mesocricetus auratus with 11 samples.

Results

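Long stretches of the Syrian hamster (Mesocricetus auratus) genome were examined in which sparse CpGs carried less methylation in the transformed cell line MT2 than in primary fetal cells. The members were 5151 CpGs in 146 windows of 1 Mb, out of 940 windows that could be judged and 2010882 CpGs listed in all. A CpG entered when it lay in a stretch holding 1 to 9 listed CpGs within 250 bp on each side, itself included (its density), and had at least 10 reads in each of the 8 MT2 vehicle and primary libraries. That held for 51331 CpGs, of which 34512 lay in windows with at least 20 of them. A window became a member when its mean level in the vehicle libraries was at least 12 points (percentage points of methylation) below that in the primary libraries and each vehicle library lay below each primary library. The members were thus chosen by the vehicle and primary values, so that contrast is described without a test. The 794 other windows served as the comparison.

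The study used reduced representation bisulfite sequencing, which reads the ends of restriction fragments rich in CpGs after unmethylated cytosines have been converted. The 3 MT2 wells treated with 5 µM 5-aza-2'-deoxycytidine (5aCdR) for 48 h and the 4 MT2 wells given 0.05% DMSO as vehicle, also for 48 h, were compared with 4 untreated stocks of primary fetal cells. MT2 is a female Syrian hamster fetal line grown from 1 colony that benzo[a]pyrene had transformed, it had bypassed senescence, and it stood at about passage 28. All wells were seeded from 1 thawed stock, so p-values for MT2 measure the spread between wells. The labels' protocol names 4 plates with 5aCdR, and 3 such libraries were analysed. The primary cells came from female fetuses at gestation day 13.5 without head, viscera and limbs, were a mix of ectodermal and mesodermal cells at several stages of differentiation, and had been in culture for under 3 days. Line, transformation, passage and cell mixture therefore differ together between MT2 and primary cells and cannot be told apart.

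As background, methylation at CpGs is copied onto the new DNA strand at each division by a maintenance methyltransferase. In many cultured and tumour cells of human and mouse this copying is incomplete over long domains poor in CpGs, known as partially methylated domains, while CpG islands, the short CpG-dense stretches at many promoters, follow other rules. 5aCdR is built into DNA and traps the methyltransferases, so that methylation is lost as cells divide.

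Depth limited the windows to their best covered CpGs. The libraries held 17834610 to 46148127 reads over CpGs, and the median coverage of a member CpG was 66 to 78 reads in the 5aCdR libraries, 36 to 65 in the vehicle libraries and 38 to 64 in the primary libraries. A member window held a median of 32 CpGs of the rule (20 to 81), in a median of 18 clusters of neighbouring CpGs. Mitochondrial CpGs, which give an estimate of incomplete conversion, read as 2.44% ± 0.167 methylated in the 5aCdR libraries (n = 3), 3.08% ± 0.455 in the vehicle libraries (n = 4) and 4.37% ± 0.513 in the primary libraries (n = 4) (SD). The 3 groups stood in the same order there as in the member windows, and the part of conversion in the results was not tested. No source at hand names the genome build, so regions carry the files' own scaffold names and 1-based positions, with no genes and no sequence.

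In the member windows as a whole, the 5151 CpGs had mean levels of 43.7%, 43.3%, 43.6% and 43.4% in the 4 vehicle libraries, against 61.1%, 61.6%, 61.7% and 62.2% in the 4 primary libraries. The libraries of each group lay close together and the groups stood far apart. The means were 43.5% ± 0.193 in vehicle and 61.7% ± 0.459 in primary cells (SD, n = 4 each), a difference of -18.2 points that the rule required to be at least 12 in size. The 29361 CpGs of the other windows had 57.3% ± 0.131 in vehicle and 58.6% ± 0.359 in primary cells (SD, n = 4 each), a difference of -1.30 points. The member windows were 15.5% of the windows judged, a share set by the rule from which nothing is read. A further 10 windows were lower by at least 12 points but had overlapping libraries, and 19 (2.02%) were higher by at least 12 points in vehicle without overlap.

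**Figure D1:**
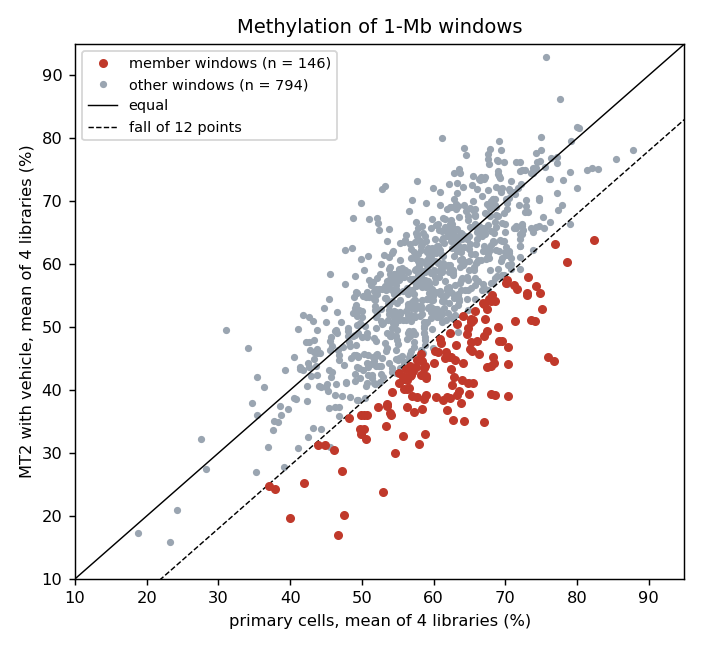
Mean methylation of each 1-Mb window in the 4 primary libraries (horizontal axis, %) and in the 4 MT2 vehicle libraries (vertical axis, %), with the 146 member windows in red and the 794 other windows in grey. The solid line marks equal levels and the dashed line a level 12 points lower in vehicle, and grey points beyond the dashed line are the 10 windows whose libraries overlapped.

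The same windows were lower over CpGs that the rule had not used. Their 56378 other CpGs of the same density, each taken in the libraries that listed it, averaged 50.5% in vehicle and 63.8% in primary cells, a difference of -13.3 points. Of the 146 windows, 142 (97.3%) were lower in vehicle at these CpGs and 81 (55.5%) by at least 12 points. In the other windows 413 of 794 (52.0%) were lower, 38 (4.79%) by at least 12 points, and the mean difference was -0.896 points. The CpGs not used lie beside those of the rule in the same libraries, so this is a description of the same windows and not a separate sample.

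Within the member windows the lower level was spread over many CpGs. Of the 5151 CpGs, 70.1% were lower in vehicle than in primary cells, and the median CpG differed by -15.6 points (quartiles -37.9 and 0.322). A level lower by at least 25 points was seen at 2001 CpGs (38.8%), and one higher by at least 25 points at 277 (5.38%). In the other windows 16.9% of CpGs were lower and 13.3% higher by that margin, so both directions occurred there at more even frequency. When the member windows were split into parts of 100 kb with at least 5 CpGs, 419 of 471 parts (89.0%) were lower in vehicle, against 1376 of 2614 parts (52.6%) in the other windows. Of the 83 member windows with at least 3 such parts, 47 were lower in each part, against 36 of 479 of the other windows.

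In the member windows, which the rule chose by vehicle and primary values, nearly fully methylated CpGs were fewer in MT2 than in primary cells. At the 4647 member CpGs that had 10 reads or more in each of the 11 libraries, levels over 80% were found at 15.8% ± 0.616 of CpGs in 5aCdR (n = 3), 25.5% ± 2.43 in vehicle (n = 4) and 41.6% ± 1.52 in primary cells (n = 4) (SD). Levels under 20% were found at 38.7% ± 1.06, 38.8% ± 2.18 and 20.3% ± 2.12 of these CpGs in 5aCdR, vehicle and primary cells. The share in between was 45.5% ± 1.59 in 5aCdR, 35.6% ± 4.60 in vehicle and 38.1% ± 3.63 in primary cells. This intermediate share was 40.8%, 32.1%, 31.4% and 38.2% in the 4 vehicle libraries, and the lower values belong to the libraries of lower coverage (36 and 37 reads per member CpG, against 65 and 58). The part of coverage in these shares was not tested. In the other windows, levels over 80% were found at 26.8% ± 0.447 of CpGs in 5aCdR, 41.5% ± 2.45 in vehicle and 40.5% ± 1.90 in primary cells (SD). There the share was lower in 5aCdR but not in vehicle.

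Grouped by their level in primary cells, the member CpGs over 80% there averaged 59.1% in 5aCdR, 66.6% in vehicle and 91.8% in primary cells (1635 CpGs). Those between 20% and 80% averaged 31.2%, 35.3% and 54.4% in the same order (2380 CpGs). The 632 CpGs under 20% in primary cells averaged 10.3% in 5aCdR, 12.1% in vehicle and 6.91% in primary cells, so this class was not lower in vehicle. In the other windows the highest class averaged 73.9% in 5aCdR, 83.3% in vehicle and 92.5% in primary cells. There the lowest class averaged 15.6%, 18.5% and 6.42% in 5aCdR, vehicle and primary cells. The classes are cut by the primary values, so their primary levels are set by the cut and the classes are given as a description.

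CpG density went with the size of the difference. Member CpGs of density 1 to 4 averaged 37.6% in 5aCdR, 42.4% in vehicle and 62.5% in primary cells, and those of density 5 to 9 averaged 38.6%, 43.8% and 59.9%. The vehicle minus primary differences were -20.1 and -16.1 points. In the other windows the differences at density 1 to 4 and 5 to 9 were -2.80 and -0.424 points, so that order was not particular to the members. CpGs of density 10 or more were not used by the rule, and in the member windows 2740 of them had 10 reads or more in each library. They averaged 21.5% in 5aCdR, 24.9% in vehicle and 26.8% in primary cells, a vehicle minus primary difference of -1.83 points, against 1.70 points in the other windows (15.9%, 18.5% and 16.8%). Within them, the 2030 CpGs of density 10 to 29 had 27.7%, 32.3% and 35.5% in 5aCdR, vehicle and primary cells. The 710 CpGs of density 30 or more had 3.73%, 4.00% and 1.79%, so the densest CpGs of the member windows had low levels in all 3 groups.

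**Figure D2:**
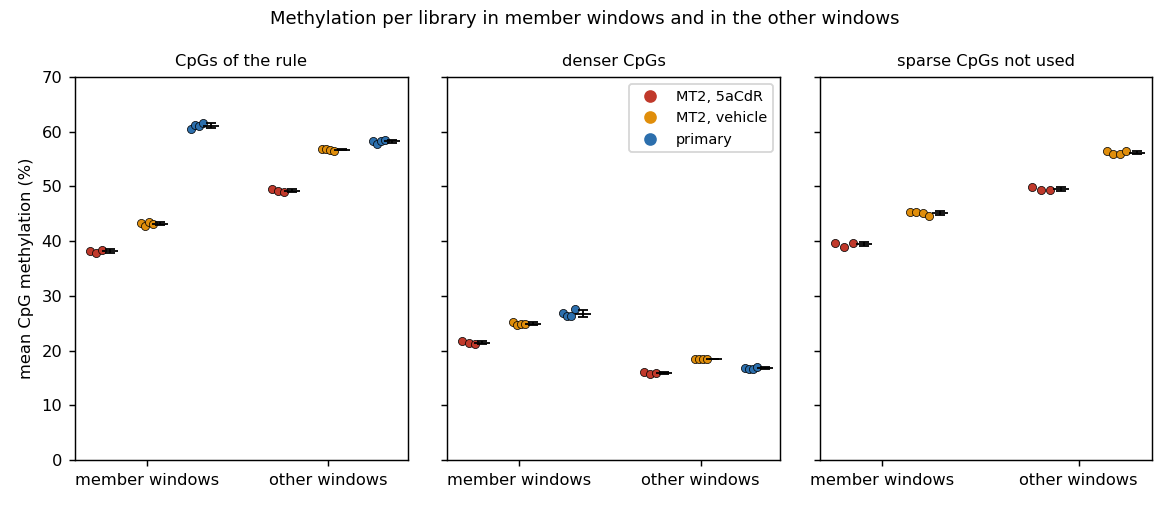
Mean CpG methylation (%) of each library, with the mean and SD beside the points, in member windows (left of each panel) and other windows (right), for 5aCdR (red), vehicle (orange) and primary cells (blue). At CpGs of the rule the vehicle libraries of the member windows sit at about 43.2% and the primary libraries at about 61.1%, while at denser CpGs the 3 groups lie within a few points. The panel of sparse CpGs not used by the rule shows MT2 libraries only, since these CpGs were not all listed in primary cells.

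The windows also differed in their CpG content. A member window listed a median of 1108 CpGs in any library, against 1281.5 in the other windows. Of these, a median of 57.0% were of density 1 to 9 in member windows and 48.3% in the other windows. The median number of CpGs of the rule was 32 in both sets. The spread between libraries had a median SD of 3.52 points in vehicle and 3.56 points in primary cells over member windows, and 3.17 and 3.39 points over the other windows. The median level in primary cells was 62.1% in member windows and 59.1% in the other windows.

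The window with the largest difference, KB708212.1:8000001-9000000 with 21 CpGs, had 39.1%, 44.5%, 50.8% and 43.9% in the vehicle libraries, against 77.8%, 74.8%, 73.6% and 80.9% in the primary libraries. All vehicle libraries lay more than 20 points below the lowest primary library. The difference was -32.2 points. KB708244.1:1000001-2000000 rested on 62 CpGs and had 33.1%, 35.9%, 37.5% and 33.0% in vehicle, against 69.1%, 63.0%, 70.6% and 65.2% in primary cells, a difference of -32.1 points. There 87.1% of CpGs were lower in vehicle and 56.5% by at least 25 points, and the libraries of each group stayed within a few points of each other. KB708279.1:4000001-5000000 with 22 CpGs varied more, at 39.8%, 43.0%, 43.5% and 29.6% in vehicle and 82.5%, 64.0%, 67.9% and 67.0% in primary cells. KB708347.1:1000001-2000000 averaged 45.2% ± 4.05 in vehicle and 75.9% ± 6.56 in primary cells, and KB708127.1:62000001-63000000 averaged 17.0% ± 3.98 and 46.7% ± 5.34 (SD, n = 4 each). The last of these had the lowest vehicle level among the member windows. The 4 windows other than the one on KB708244.1 held 30 CpGs or fewer, and of all 146 members 69 had under 30, so that their values rest on few sites.

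The windows with the most CpGs had mid-sized differences. KB708296.1:1000001-2000000 held 81 CpGs and had 43.9%, 42.5%, 43.5% and 47.0% in vehicle, against 64.9%, 63.8%, 66.9% and 60.7% in primary cells. The groups were separated by more than 10 points at their nearest libraries. KB708269.1:1-1000000 held 78 CpGs and averaged 47.7% ± 1.14 in vehicle and 66.1% ± 3.85 in primary cells. KB708217.1:3000001-4000000 held 70 CpGs and averaged 47.8% ± 1.86 in vehicle and 69.1% ± 3.84 in primary cells (SD, n = 4 each). In these 3 windows between 67.9% and 76.9% of CpGs were lower in vehicle.

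The most deeply read CpGs of the named windows went different ways. Both given here lie among the 1% most covered CpGs, whereas a member CpG had a median of 36 to 78 reads per library. They need not be typical of their windows. The CpG with the most reads in the window of the largest difference, at position 8245962 of KB708212.1, was nearly fully methylated everywhere. It had 93.3%, 86.2% and 94.8% in 5aCdR (1719 to 2361 reads), 96.7%, 95.9%, 97.7% and 94.8% in vehicle (1351 to 2355 reads) and 98.6%, 95.1%, 92.2% and 95.7% in primary cells (1400 to 1941 reads). The most deeply read CpG of the window with the most CpGs, at position 1173299 of KB708296.1, had 36.8%, 15.5% and 36.6% in 5aCdR (588 to 838 reads) and 31.2%, 53.4%, 42.5% and 28.7% in vehicle (251 to 916 reads). In primary cells it had 93.8%, 81.7%, 73.3% and 84.5% (306 to 757 reads), so each MT2 library lay below each primary library. The MT2 wells varied widely at this CpG. Reads may be copies of fewer molecules, so no interval from read numbers is given.

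At the threshold of 12 points, members and non-members were close. The 3 member windows just inside, KB708202.1:3000001-4000000, KB708322.1:2000001-3000000 and KB708180.1:10000001-11000000, differed by -12.4, -12.4 and -12.5 points. The 3 windows just outside without overlap, KB708194.1:2000001-3000000, KB708174.1:6000001-7000000 and KB708151.1:2000001-3000000, differed by -11.9, -11.8 and -11.8 points. Over all 940 windows the difference was below 0 in 609 (64.8%), with a median of -3.07 points.

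**Figure D3:**
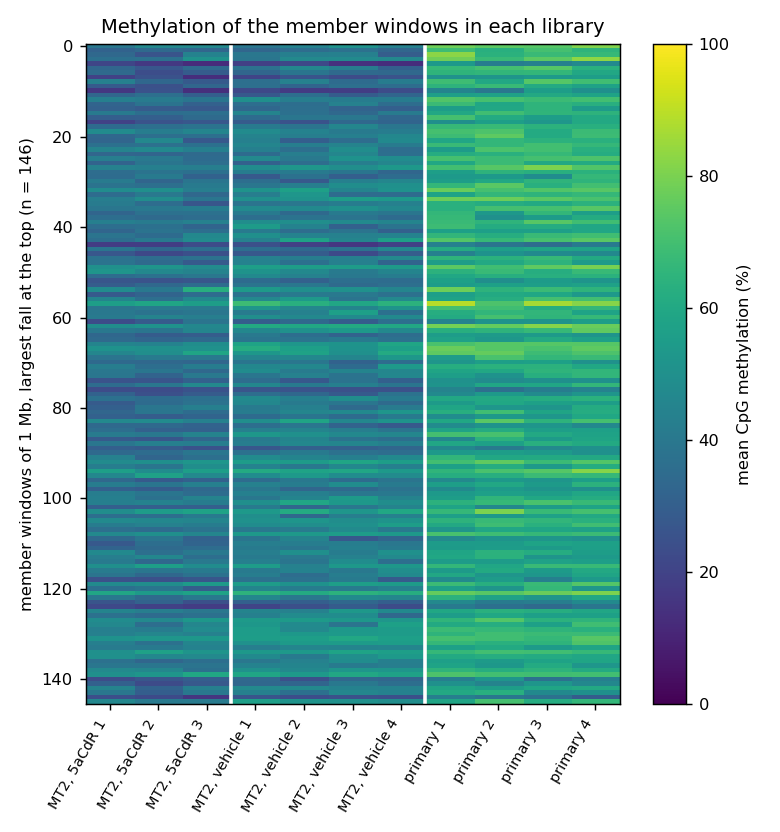
Mean methylation (colour, %) of the 146 member windows (rows, largest vehicle minus primary difference at the top) in the 3 libraries with 5aCdR, the 4 with vehicle and the 4 of primary cells (columns). The 7 MT2 columns are darker than the 4 primary columns in each row, which the rule required of the vehicle columns. Rows differ in level within every group.

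The word stretch was checked against the extent of the windows. The 146 member windows formed 123 runs of adjacent windows, of which 106 were single windows, 11 held 2 and 6 held 3, and none was longer. Where the next window along the scaffold could be judged, it was a member in 23 of 86 cases (26.7%) after a member and in 62 of 462 cases (13.4%) after another window. All eligible windows next to a member differed by -7.08 points on one side (85 windows) and -5.78 points on the other (86 windows), and windows with no member within 3 Mb by -1.20 points (552 windows). Adjacent windows that were not members differed by -2.14 points (62 windows) and -1.02 points (63 windows), a subset from which neighbours with the largest differences had been removed as members. By the rule most members were single windows. Neighbours could often not be judged, since only 56 member windows had eligible windows on both sides.

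**Figure D4:**
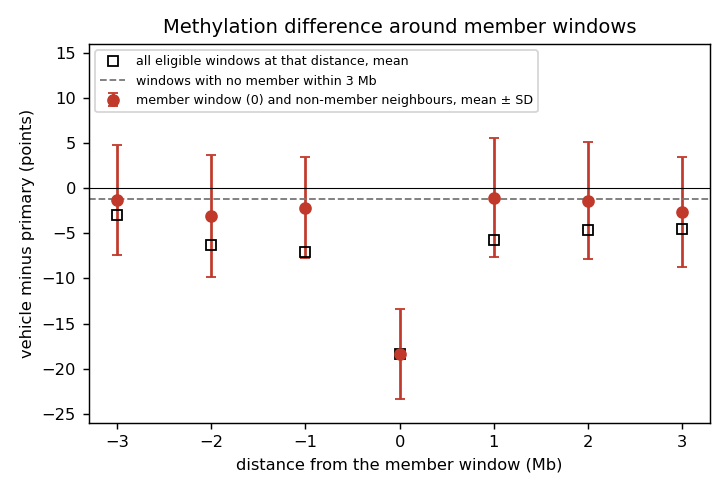
Mean vehicle minus primary difference (points of methylation) at member windows (0) and at non-member windows up to 3 Mb to either side (red, bars are the SD over windows). Open squares give the mean of all eligible windows at that distance, members included, and the dashed line that of windows with no member within 3 Mb. The mean of -18.4 points at 0 stands against -7.08 and -5.78 points in all adjacent eligible windows and -2.14 and -1.02 points in the adjacent non-members.

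The 3 runs with the most CpGs were 3 Mb long. KB708296.1:1-3000000 held 190 CpGs and averaged 39.5% ± 0.774 in 5aCdR, 47.4% ± 1.24 in vehicle and 63.7% ± 1.03 in primary cells. KB708244.1:1-3000000 held 182 CpGs and averaged 40.6% ± 1.31, 45.3% ± 1.61 and 68.2% ± 2.53 in the same groups. KB708209.1:3000001-6000000 held 129 CpGs and averaged 42.8% ± 3.26, 47.7% ± 1.59 and 66.2% ± 1.92 (SD, n = 3, 4 and 4). In each of the 3 runs 5aCdR was lowest, vehicle next and primary cells highest.

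The members were scattered over 96 of the 219 scaffolds that had a window. Scaffold KB708127.1 held 7 members among 33 windows, KB708129.1 held 5 among 17, and KB708296.1 held 3 among 3. By the length covered, members were 31 of 163 windows (19.0%) on scaffolds under 5 Mb, 42 of 209 (20.1%) on those of 5 to 10 Mb, 46 of 323 (14.2%) on those of 10 to 20 Mb and 27 of 245 on longer ones. No window was a member among 19 on scaffold KB708147.1 and 7 on KB708184.1, where 18 and 6 windows had more reads in vehicle than in primary cells (edgeR's quasi-likelihood test, adjusted p under 0.05).

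Treatment with 5aCdR lowered methylation in the member windows further. The vehicle libraries took part in choosing the windows, so the test was read at CpGs outside the rule. At 3470 sparse CpGs of the member windows that the rule had not used, the levels were 39.4% ± 0.394 in 5aCdR (n = 3) and 45.1% ± 0.342 in vehicle (n = 4, SD). These CpGs had at least 10 reads in every MT2 library but not in every primary library. They are therefore not the same set as the 56378 other CpGs described above. The fall of 5.65 points had p = 0.0286 in an exact two-sided permutation test, the smallest that 3 against 4 libraries allow. The permutation p adjusted over 8 classes by Benjamini-Hochberg was 0.0286. Those classes include CpGs of the rule, where low vehicle levels chose the members, so nothing is read from the adjusted p. At the same kind of CpGs the other windows had 49.5% ± 0.316 in 5aCdR and 56.2% ± 0.286 in vehicle. The fall in the member windows was smaller by 1.01 points, which did not pass (p = 0.0571 in the exact two-sided permutation test). The ratio of the levels, member over other, was 0.796 in 5aCdR and 0.802 in vehicle and did not pass either (exact permutation p = 0.343).

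At the CpGs of the rule the same contrast is a description, because low vehicle levels at these CpGs made a window a member. The 4647 member CpGs that reached 10 reads in each library had 38.3%, 37.7% and 38.4% in 5aCdR, against 43.4%, 42.8%, 43.4% and 43.1% in vehicle. The groups did not overlap and differed by -5.04 points. The other windows had 49.2% ± 0.240 in 5aCdR (n = 3) and 56.7% ± 0.114 in vehicle (n = 4, SD), a difference of -7.50 points. As a share of the vehicle level these were -11.7% in member and -13.2% in other windows. By density the member CpGs differed by -4.89 points at density 1 to 4 and -5.18 points at density 5 to 9. By level in primary cells they differed by -1.82 points under 20%, -4.18 points between 20% and 80% and -7.55 points over 80%, against -2.87, -7.96 and -9.38 points in the other windows.

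CpGs of density 10 or more, which the rule did not use, also fell in the member windows, by 3.47 points without overlap between the libraries (exact two-sided permutation p = 0.0286, adjusted p = 0.0286). In the other windows, where the levels were lower, the fall was smaller by 0.930 points (exact two-sided permutation p = 0.0286, adjusted p = 0.0327). Both adjustments were made together with classes of CpGs of the rule, where low vehicle levels chose the members. Nothing is therefore read from the adjusted p of 0.0286 or of 0.0327. The ratio of member to other level at CpGs of density 10 or more was 1.35 in 5aCdR and 1.35 in vehicle (exact permutation p = 0.771).

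**Figure D5:**
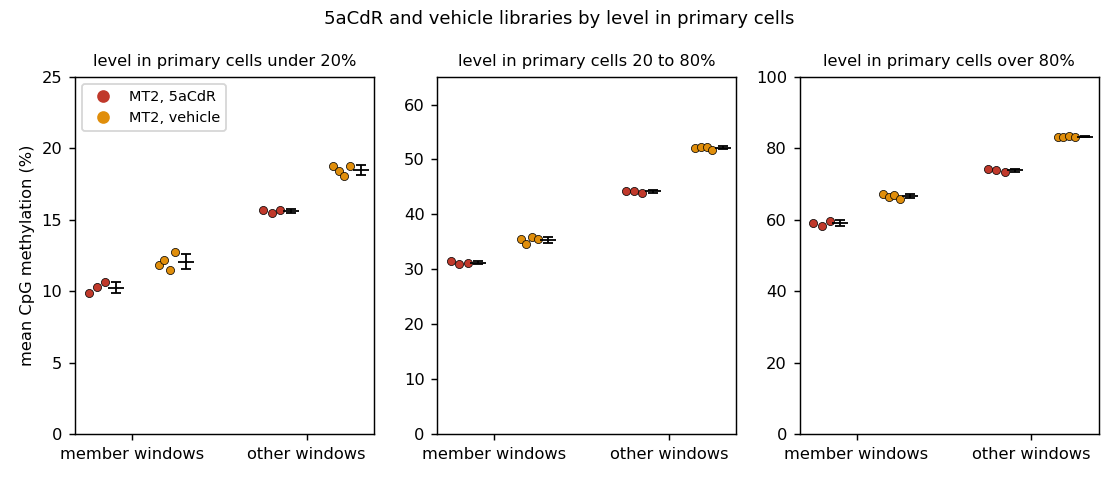
Mean CpG methylation (%) of the 5aCdR (red) and vehicle (orange) libraries, with mean and SD beside the points, in member windows and other windows, for CpGs whose level in primary cells was under 20%, 20 to 80% or over 80%. The vertical axis starts at 0 and has its own range in each panel. In all 3 classes the 5aCdR libraries lie below the vehicle libraries in both sets of windows, and the member windows lie below the others.

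Window by window, 46 of the 146 members (31.5%) were lower in 5aCdR and 0 higher at an adjusted p under 0.05 in a quasi-binomial model of the reads with Benjamini-Hochberg adjustment over 940 windows. Over all windows 54.7% were called lower and 0.106% higher. These calls rest on CpGs whose vehicle levels chose the members, so nothing is read from these shares side by side. Without adjustment 56 members were lower and 0 higher at p under 0.05, and limma on the mean level also called 0 higher. Weighted by reads, the median change of a member window was -4.80 points, with 136 of 146 (93.2%) below 0. In the other windows it was -8.49 points, with 783 of 794 (98.6%) below 0. Libraries did not overlap, with 5aCdR lower, in 49 members (33.6%, background 53.9%). These shares too rest on CpGs whose vehicle levels chose the members, so nothing is read from them side by side. At CpGs not used by the rule, 16 of 77 member windows with enough of them were called lower, beside a background of 32.3%, and the difference between these shares was not tested. In the remaining 97 member windows, outside the 49 above, the 5aCdR and vehicle libraries overlapped at CpGs of the rule.

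Among the windows called at CpGs of the rule, the largest difference was in KB708202.1:3000001-4000000. Its mean CpG levels were 46.3%, 40.7% and 41.5% in 5aCdR and 56.3%, 51.4%, 50.5% and 49.1% in vehicle, without overlap. Weighted by reads it had 53.8% in 5aCdR and 70.6% in vehicle, a difference of -16.8 points. KB708272.1:3000001-4000000 had 41.5%, 40.2% and 44.8% in 5aCdR and 53.0%, 50.1%, 46.8% and 45.9% in vehicle, with -15.0 points by reads, and changed by -15.3 points at CpGs not used by the rule (quasi-binomial adjusted p = 0.00914). KB708127.1:67000001-68000000 had 50.1%, 52.2% and 48.4% in 5aCdR and 56.4%, 55.7%, 55.1% and 54.6% in vehicle, with -13.0 points by reads. In these windows the change by reads, in which deeply read CpGs count for more, was larger than that of the mean CpG level. They were picked by the change by reads, which favours that order. Over all member windows the median change was -4.80 points by reads and -4.89 points by mean CpG level.

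Other windows with many CpGs gave no call at CpGs of the rule. KB708217.1:3000001-4000000 had 43.2%, 41.5% and 44.1% in 5aCdR and 49.0%, 49.3%, 47.8% and 45.2% in vehicle, which do not overlap, yet the difference by reads was -0.984 points. At CpGs not used by the rule it was -6.62 points (quasi-binomial adjusted p = 0.0701). KB708129.1:4000001-5000000 differed by -2.45 points by reads, with 52.3% ± 0.987 in 5aCdR (n = 3) and 57.0% ± 1.89 in vehicle (n = 4) as CpG means (SD). At its CpGs not used by the rule it changed by -14.9 points (quasi-binomial adjusted p = 0.00219). KB708244.1:1000001-2000000, among the windows furthest below primary cells, had 31.5%, 34.3% and 33.1% in 5aCdR, which overlapped the 33.0% to 37.5% of vehicle, and differed by -2.58 points by reads. At its CpGs not used by the rule the difference was -6.06 points (quasi-binomial adjusted p = 0.0808). In 136 of the 146 member windows (93.2%) the mean in 5aCdR was below that in vehicle, against 784 of 794 other windows (98.7%). In each of the 146 every 5aCdR library lay below every primary library. The rule had already put every vehicle library there below every primary library, so nothing is read from that count.

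The number of reads in the member windows, which the rule used only as a minimum, was nearly the same in all groups. Among reads over CpGs that reached 10 reads in each of the 11 libraries, the member windows took 8.16%, 8.14% and 8.14% in 5aCdR, 8.25%, 8.22%, 8.42% and 8.20% in vehicle and 8.01%, 8.12%, 8.13% and 8.08% in primary cells. Vehicle exceeded primary cells by 0.184 percentage points without overlap (exact two-sided permutation p = 0.0286, the smallest possible, adjusted p = 0.114 over 4 tests). Without the most deeply covered CpGs this difference was 0.0907 percentage points (exact permutation p = 0.171), and without primary replicate 1 it was 0.160 (exact permutation p = 0.0571). The 5aCdR libraries were 0.124 percentage points below vehicle (exact permutation p = 0.0857). Per window, edgeR's quasi-likelihood test with Benjamini-Hochberg adjustment called 8 members with more reads in vehicle than in primary cells, 5.48% of them against a background of 3.94%, and 4 when vehicle replicate 4 was left out. That background is 37 windows, of which 18 lay on KB708147.1 and 6 on KB708184.1, scaffolds with 0 members. Away from these 2 scaffolds the background is therefore lower than 3.94%, and the difference between the shares was not tested. The edgeR test called 0 members with fewer reads (background 0.638%), where 2 were fewer without adjustment and DESeq2 called 1.

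The member window with the largest gain of reads, KB708159.1:6000001-7000000, took 0.718, 0.920, 0.699 and 0.682 per mille of reads in vehicle and 0.476, 0.664, 0.565 and 0.465 per mille in primary cells. The groups did not overlap, and the fold was 1.41 (edgeR adjusted p = 0.00793). In KB708137.1:5000001-6000000 the fold was 1.35 (edgeR adjusted p = 0.000496), and in KB708291.1:3000001-4000000 it was 1.32 (edgeR adjusted p = 0.0009). Without the most deeply covered CpGs the log2 fold in KB708137.1:5000001-6000000 was -0.046, so that gain rests on those CpGs. Between 5aCdR and vehicle, edgeR called 0 members with more reads (background 0.745%, 6 without adjustment, 1 by DESeq2) and 1 with fewer, KB708293.1:2000001-3000000 (background 0.106%). No member was called with fewer reads when 5aCdR replicate 1, 5aCdR replicate 2 or vehicle replicate 4 was left out. When the windows called in reads between vehicle and primary cells were left out, the difference with 5aCdR at member CpGs was -5.05 points. With them it was -5.04 points. Only 8 of the 146 members were left out, too few to move the mean much, so nothing is read from this.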

How the data were processed

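Reduced representation bisulfite libraries of 3 MT2 wells with 5aCdR, 4 MT2 wells with vehicle and 4 primary stocks were used. The submitters' processing notes name methylKit 1.10.0 under R 3.6.1, Bismark 0.22.1 with Bowtie2, Trim Galore 0.5.0 and bcl2fastq 2.20.0.42. Settings and genome build are not given in the sources used here. The authors deposited, per strand position with 10 reads or more, the coverage as a count of reads, and the C and T levels are a percent of that coverage, per the file headers.

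Methylated reads were recovered by rounding and the strands of each CpG were summed, which leaves out strands under 10 reads (32.1% of CpGs had both). Levels per library are means over CpGs, compared by exact two-sided permutation tests with Benjamini-Hochberg adjustment. Mean CpG levels of single windows in 5aCdR cover the CpGs of the rule that each 5aCdR library listed. Windows were tested with a quasi-binomial model on summed reads (dispersion moderated by limma 3.58.1, not below 1) and reads per window with edgeR 4.0.16 (TMM, all 3 groups), under R 4.3.3, Python 3.11.15, numpy 2.4.6, pandas 2.3.3 and scipy 1.17.1. On simulated data for 5aCdR against vehicle over 940 windows, 69% of changes of 10 points and 100% of changes of 20 points were recovered, with 5 false calls among 740 unchanged windows. For reads of vehicle against primary over 940 windows, 59% of 1.25-fold and 99% of 1.5-fold changes were recovered, with 7 false calls among 740.

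The members, the lists and the tests were chosen with earlier results of these data known. Windows named in the text are the 5 with the largest difference, the 3 with the most CpGs, 3 on each side of the threshold, the 3 longest runs (by CpGs among runs of equal length), the 3 largest called changes with 5aCdR each way, the 3 smallest such changes among the 20 members with the most CpGs, and the 3 largest called gains and losses of reads. Single CpGs named are those with the most reads in the first of the windows with the largest difference and with the most CpGs. Alternatives were other read, CpG, density and window settings, other tests, a replicate block, and leaving out single libraries. The tests at CpGs not used by the rule, and without windows of changed reads, were chosen after seeing the data.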

Additional observations from a re-analysis of the deposited data

Results flagged for a closer look

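Groups of 4 libraries were checked in the named windows, the classes of member CpGs, the read share and the named single CpGs. Of these 67 groups, 2 held a library whose gap to the nearest other took up more of the range than Dixon's 95% critical value. Both were groups of named windows. The classes of member CpGs overlap, so the groups are not all separate. Chance gives such a gap in about 1 in 20 groups. In KB708347.1:1000001-2000000, a member, vehicle replicate 1 had 39.2%, below the 46.8% to 47.9% of the other vehicle libraries and far below the lowest primary library at 67.5%. In KB708174.1:6000001-7000000, just outside the threshold, vehicle replicate 3 had 49.2%, above the 41.0% to 42.0% of the other vehicle libraries.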

How the results depend on the processing

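The number of member windows depended on the rule: 96 with a threshold of 15 points, 41 with at least 20 reads, 23 with at least 50 CpGs per window, 42 with density 1 to 4, and 163 to 207 when a library of the rule was left out. The vehicle minus primary difference at member CpGs was -16.6 points with a threshold of 10 points, -20.5 with 15, -19.8 in windows of 500 kb, -19.3 at density 1 to 4, -13.3 at CpGs not used by the rule, and -18.0 to -17.8 with a library left out.

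The difference with 5aCdR at member CpGs of the rule kept its direction under every alternative run. It was -5.17 to -4.85 points with a library left out and -5.08 in a replicate block, designs in which the exact permutation test cannot reach p = 0.05. Its difference from the other windows, which the choice of members by vehicle levels bears on, was 2.22 to 2.64 points with a library left out, 2.47 in the block and 1.01 at CpGs not used by the rule. The ratio of member to other level (5aCdR minus vehicle) no longer had an exact permutation p under 0.05 before adjustment with 15 points (0.0139), 20 reads (0.00596), a grid shifted by 500 kb (0.00946), windows of 2 Mb (0.0117), 50 CpGs (0.00851), density 1 to 4 (0.0258), the block (0.0136) and a library left out (0.00916 to 0.0173), and turned to -0.00622 at CpGs not used by the rule. The cause was not tested. Same-numbered 5aCdR and vehicle libraries had correlations of 0.0205, 0.00769 and 0.0267 over windows, in deviations from the group mean. Not every library correlated best with its own number. Correlations this near 0 show no pairing by replicate number and cannot tell whether the wells were paired in the experiment.

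Member windows called lower with 5aCdR were 10 of 22 with 20 reads, 15 of 23 with 50 CpGs and 16 of 77 at CpGs not used, where fewer windows could be tested, and 38 to 45 with a library left out; over all windows these counts were 77 of 132, 125 of 157, 177 of 548 and 422 to 470 of 940. Members with more reads in vehicle than primary cells were 5 without TMM, 4 with limma, 1 with 50 CpGs, 3 without the 1% most covered CpGs and 4 to 9 with a library left out, and those with fewer were 1 with DESeq2. Between 5aCdR and vehicle, members with more reads were 1 with DESeq2 and 0 to 1 with a library left out, and those with fewer were 2 with DESeq2, 2 without TMM, 0 with limma, with 50 CpGs and without the most covered CpGs, and 0 to 3 with a library left out. The read share of vehicle minus primary was 0.0907 without the most covered CpGs, 0.184 in the replicate block (exact permutation p = 0.125) and 0.135 to 0.207 with a library left out, and that of 5aCdR minus vehicle -0.147 to -0.0745. Reads in KB708129.1:4000001-5000000 and KB708137.1:5000001-6000000 turned to log2 folds of -0.039 and -0.046 without the most covered CpGs, and 5aCdR minus vehicle in KB708291.1:3000001-4000000 to 3.16 points with limma on the mean CpG level.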
